A study of Mus musculus with 12 samples.

Results

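The genes described here are 10 transcription regulators that have been proposed to drive Aqp2, the gene of the vasopressin-regulated water channel of the kidney collecting duct. They are the ETS factors Elf3, Elf5 and Ehf, the GATA factors Gata2 and Gata3, and Cebpb, Tfcp2l1, Grhl2, Nfat5 and Trim28. They were taken by gene symbol from a table of 25208 genes, in which all 10 had a row, and 9 passed the filter on low counts.

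RNA was sequenced from mpkCCDc11 cells, a mouse cortical collecting duct line that is immortalised and cloned, so every library comes from 1 genotype. All cells were transfected with an siRNA, kept for 4 days on permeable supports and then for 24 h without serum and hormones. They then received 1 nM dDAVP, a synthetic vasopressin analog that acts on V2 receptors, or vehicle for 24 h. The groups were Ctnnb1-siRNA dDAVP, Ctnnb1-siRNA vehicle, control-siRNA dDAVP and control-siRNA vehicle, with 3 libraries each. Ctnnb1 encodes beta-catenin; the labels call the cells with its siRNA knockdown and the others WT. The protocol also names a TRIM28 siRNA, beside which it gives a dose of 50 nM, but no sample analysed here is labelled with it. The labels do not say that the 3 libraries of a group came from separate cultures, so the spread behind each p-value is that between these samples and may be technical.

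In the collecting duct, vasopressin acts through the V2 receptor, cAMP and protein kinase A, and raises transcription of Aqp2 in principal cells. ETS factors recognise DNA around a GGAA core, GATA factors a GATA core, C/EBP factors are basic leucine zipper proteins, and grainyhead and CP2 factors form a family of their own. Nfat5 is the tonicity-responsive member of the Rel homology family and controls osmoprotective genes in the renal medulla. Trim28 does not bind a DNA motif itself: it is a corepressor that is brought to chromatin by KRAB zinc-finger proteins and recruits heterochromatin proteins.

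The sequences just upstream of Aqp2 and of the 2 regulators that were called in a pairwise comparison, Elf3 and Cebpb, are shown because the proposed factors would be read against them. They are from RefSeq on GRCm38 and run 5′ to 3′ on the strand of the gene, and each stops before the first base that RefSeq or GENCODE M21 counts as transcript. The Aqp2 run is chr15:99578806-99579054 on the plus strand, the Elf3 run is chr1:135258569-135258722 on the minus strand, and the Cebpb run is chr2:167688665-167688914 on the plus strand. Capitals mark the ETS core GGAA, the GATA core GATA and TGACG, the core word of the cAMP response element, on either strand.
Aqp2: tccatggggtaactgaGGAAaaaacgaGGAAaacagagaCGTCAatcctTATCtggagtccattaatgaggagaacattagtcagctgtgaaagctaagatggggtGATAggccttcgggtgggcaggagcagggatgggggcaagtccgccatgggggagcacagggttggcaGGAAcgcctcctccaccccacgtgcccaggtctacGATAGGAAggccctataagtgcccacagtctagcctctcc
Elf3: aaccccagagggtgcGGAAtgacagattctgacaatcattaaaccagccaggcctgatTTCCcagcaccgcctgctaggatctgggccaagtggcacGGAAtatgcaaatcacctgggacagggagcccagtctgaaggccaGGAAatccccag
Cebpb: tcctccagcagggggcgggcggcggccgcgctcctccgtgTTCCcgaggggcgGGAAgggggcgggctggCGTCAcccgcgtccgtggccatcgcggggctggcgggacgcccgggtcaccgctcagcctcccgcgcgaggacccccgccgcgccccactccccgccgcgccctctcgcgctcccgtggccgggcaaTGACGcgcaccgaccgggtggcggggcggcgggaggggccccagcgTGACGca

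The Aqp2 run held 4 GGAA cores, 3 GATA cores and 1 TGACG. The TGACG lay on the opposite strand, 211 to 207 bases before the RefSeq start, and the GATA core 41 to 38 bases before it was followed directly by a GGAA core at 37 to 34. Such short words are common. Of 32851 mouse promoter windows cut to the same 249 bases, 93.3% held a GGAA, 53.5% a GATA and 17.7% a TGACG on some strand. The Elf3 run of 154 bases held 4 GGAA cores, as did 82.5% of windows of that length at least once, and no GATA core and no TGACG. The Cebpb run held 3 TGACG words, 180 to 176, 53 to 49 and 7 to 3 bases before the start, and 17.8% of windows of 250 bases held at least 1. It also held 2 GGAA cores and no GATA core. The whole cAMP response element TGACGTCA, which stood in 1.54% of windows of 249 bases, the C/EBP word TTNCNNAA (36.8%) and the grainyhead word AACNGGTT (1.78%) were not found in the Aqp2 run. The same 3 words were not found in the Elf3 and Cebpb runs. A repeat read by CP2 factors matched once, in Elf3, and overlapped a GGAA core there (31.7% of windows of 154 bases), and the tonicity element matched none of the runs. A match is a description of letters, and the lack of one says only that they are not in this window. Windows were given for 8 of the 10 regulators, and Ehf and Grhl2 had none.

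The libraries held 32997720 to 48935473 counted reads. Ctnnb1 had 335, 342 and 326 CPM (read counts scaled to a common library size, TMM-normalised) in Ctnnb1-siRNA dDAVP libraries, against 776, 811 and 786 CPM in control-siRNA dDAVP libraries. With vehicle it had 334, 306 and 309 CPM after Ctnnb1 siRNA, against 766, 745 and 761 CPM after control siRNA. Of 10 principal cell markers, 8 had a mean of at least 1 TPM (a share of all transcripts that accounts for their length) over the 12 libraries, and the list summed to 115 to 136 TPM in Ctnnb1-siRNA dDAVP, 99.3 to 102 in Ctnnb1-siRNA vehicle, 132 to 153.9 in control-siRNA dDAVP and 109 to 120.6 TPM in control-siRNA vehicle libraries. Summed markers of the thick limb and distal tubule stayed between 0 and 0.47 TPM, of fibroblasts between 0.54 and 0.97 TPM and of endothelium between 0 and 0.33 TPM. Of 7 listed proximal tubule markers 4 were in the table, and of 6 leukocyte markers 4. Among these only Lrp2 and Cd68 had a mean of at least 1 TPM. Those lists summed to 8.35 to 13.4 and 3.96 to 8.13 TPM. Of 9 listed intercalated cell markers, only 4 were in the table. Car2, Atp6v1b1 and Aqp6 reached a mean of at least 1 TPM, and Slc4a1 had 7 reads over the 12 libraries. Those in the table summed to 145 to 161 TPM in Ctnnb1-siRNA dDAVP and 135 to 150.6 TPM in Ctnnb1-siRNA vehicle libraries. They summed to 145 to 163 TPM in control-siRNA dDAVP and 118 to 145 TPM in control-siRNA vehicle libraries. A cell line of mixed character cannot be told from a mixture of cells in bulk RNA, nor can fewer cells of a type from less RNA per cell.

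Replicate 3 of the Ctnnb1-siRNA dDAVP group differed most from its mates: the chi-square per degree of freedom against them was 42.8 and 69.4, against 5.34 to 25.4 for all other pairs within a group. It also had the highest share of mitochondrial ribosomal RNA, 1.52% of reads. Control-siRNA dDAVP replicate 1 came next with 1.27%, and the other 10 libraries had 0.464% to 1.07%.

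Aqp2, the gene these factors are proposed to serve, was nearly silent without dDAVP. It had 187, 171 and 155 reads in Ctnnb1-siRNA dDAVP libraries, against 2, 6 and 0 reads in Ctnnb1-siRNA vehicle libraries. After control siRNA it had 302, 189 and 279 reads with dDAVP, against 2, 0 and 0 reads with vehicle. Between siRNAs, the dDAVP libraries did not overlap in CPM, but the difference was not called (log2 -0.70, SE 0.25, adjusted p = 0.287). The reads of every dDAVP library were above those of every vehicle library, and Aqp2 was called for dDAVP with either siRNA (adjusted p = 1.76e-06 after Ctnnb1 siRNA and 2.20e-07 after control siRNA). This and all further adjusted p-values of single genes are from edgeR's quasi-likelihood test with Benjamini-Hochberg adjustment over 16508 tested genes, with a call at under 0.05, unless another tool is named.

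At the level of transcripts, 8 of the 10 regulators were well represented in these cells. Trim28 averaged 206 TPM over the 12 libraries (174 to 242), and Ehf averaged 201 TPM (174 to 229). Tfcp2l1, which is needed for the collecting duct to form its mature cell types in mice, averaged 108 TPM (89.95 to 117). Elf3 followed at 93.2 TPM (71.9 to 129), Grhl2 at 66.5 TPM (58.3 to 77.2) and Nfat5 at 62.8 TPM (42.7 to 84.0). Gata3, a factor of the nephric duct lineage, averaged 31.4 TPM (23.4 to 45.2) and Cebpb 31.2 TPM (24.0 to 36.3). These 8 lay above 67.9% to 96.2% of tested genes in mean TPM.

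Of the remaining pair, Gata2 was low and Elf5 was near the limit of detection. Gata2, which in mice is needed for full Aqp2 expression in the collecting duct, averaged 0.478 TPM (0.29 to 0.86) and had 21 to 53 reads per library. Elf5 had 0, 0 and 0 reads in Ctnnb1-siRNA dDAVP libraries, 3, 0 and 0 in Ctnnb1-siRNA vehicle libraries, 0, 0 and 4 in control-siRNA dDAVP libraries and 0, 2 and 0 in control-siRNA vehicle libraries. It was listed at up to 0.05 TPM and was not tested. A count of 0 allows up to 3 reads, which is 0.0612 to 0.0895 CPM in these libraries, counting error only. In the order of mean TPM, neighbours were separated beyond the spread of the 12 libraries at 3 of 9 steps: Ehf above Tfcp2l1, Cebpb above Gata2, and Gata2 above Elf5. The other 6 steps, such as Trim28 and Ehf or Gata3 and Cebpb, overlapped.

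**Figure D1:**
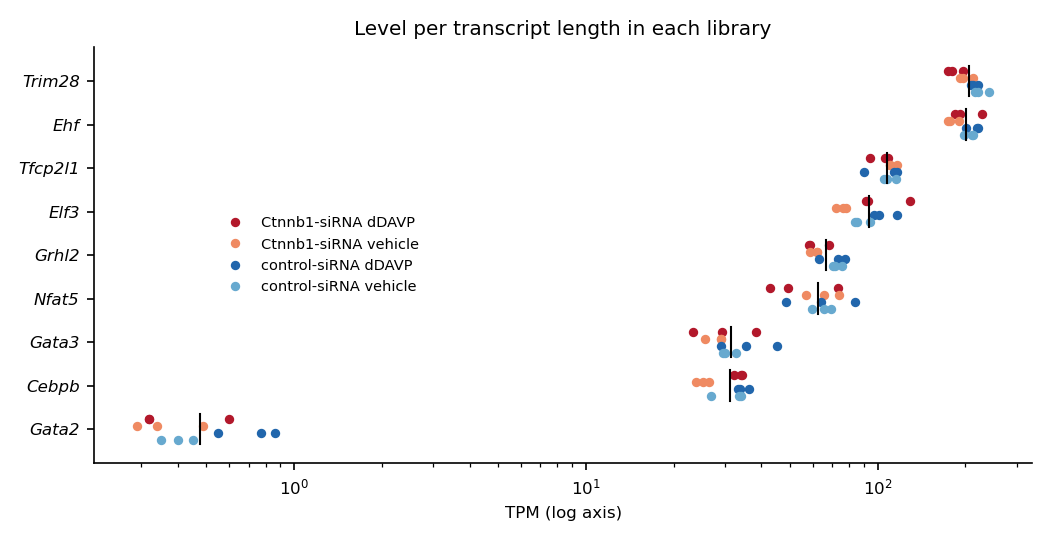
Level of 9 regulators in TPM on a log axis, 1 point per library (12 libraries, coloured by group) and a bar at the mean; Elf5, listed at 0 to 0.05 TPM, is left out. Gata2 lies at 0.29 to 0.86 TPM, below all values of the other 8, which span 23.4 to 242 TPM.

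Within their families the regulators held unequal shares. Ehf was the highest of 21 ETS genes in the table with 25.0% of their summed TPM (23.6% to 26.1% over the 12 libraries), and Elf3 came second with 11.6% (9.58% to 14.2%). Ets2 at 91.9 TPM and Elf1 at 90.1 TPM, both broadly expressed ETS factors, had ranges that overlapped that of Elf3. Gata3 made up 94.1% of the summed TPM of the 5 GATA genes, while Gata4 averaged 1.09 TPM and Gata6 0.373 TPM. Cebpb held 28.0% of the 5 C/EBP genes, with a range of 24.0 to 36.3 TPM that overlapped those of Cebpg (40.8 TPM), a partner that lacks an activation domain, and Ddit3 (32.6 TPM), the stress-induced C/EBP protein CHOP. Tfcp2l1 held 45.7% and Grhl2 28.1% of the grainyhead and CP2 genes, in which Grhl1 averaged 9.03 TPM and Grhl3 0.0158 TPM. Nfat5 held 20.6% of the Rel homology genes, close to Nfkb1 with 21.2% and Nfkb2 with 19.9%. Trim28 held 73.1% of the TIF1 genes, with Trim33 at 48.7 TPM and Trim24 at 27.0 TPM.

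**Figure D2:**
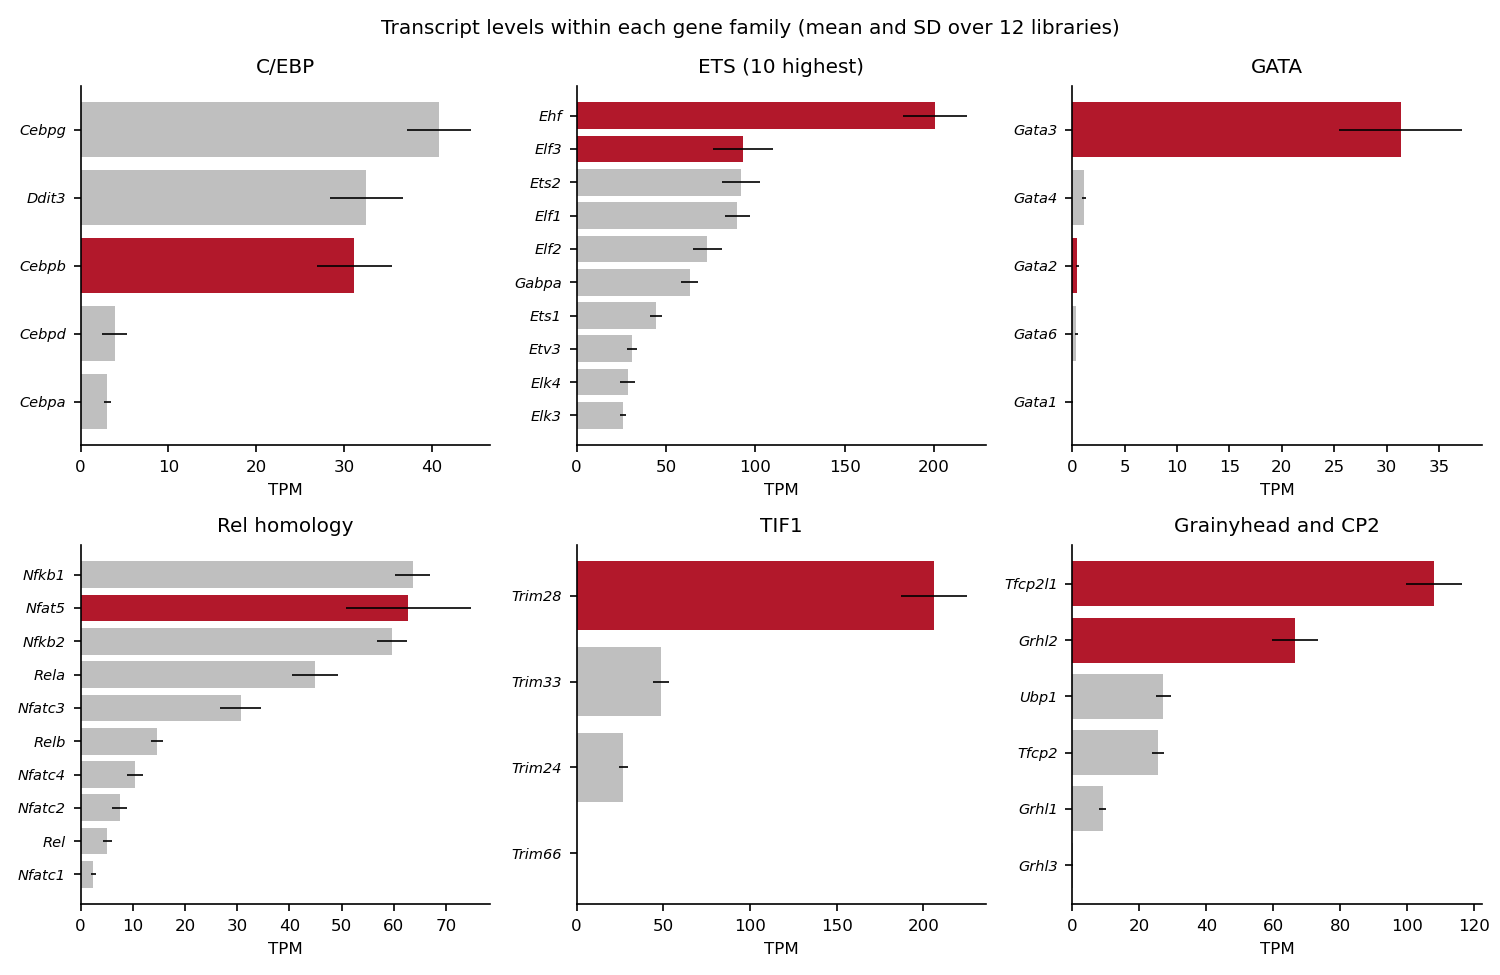
Mean TPM over the 12 libraries with SD for the genes of each family (10 highest for ETS), the regulators described here in red and their relatives in grey. Ehf, Gata3, Trim28 and Tfcp2l1 are the highest of their families, whereas Cebpb has 31.2 TPM on average, with libraries that overlap those of Cebpg and Ddit3.

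The first comparison asked what dDAVP did to these genes in cells with Ctnnb1 knocked down. Elf3 and Cebpb rose, each with dDAVP libraries all above vehicle libraries. Of the 9 tested regulators, 2 were called higher and 0 lower, where 2.78% of all tested genes were called (2.08% higher and 0.697% lower). An unadjusted p under 0.05 was found for 3 members, Elf3, Cebpb and Ehf, and for 13.7% of tested genes. The 9 tested members had a median log2 difference of 0.17, against -0.0049 over all tested genes. The regulators were chosen with earlier results of these data known. Values over all tested genes, here and below, are therefore given for description only.

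Elf3, an ETS factor of epithelial cells, had 102, 102 and 130.5 CPM in Ctnnb1-siRNA dDAVP libraries. In Ctnnb1-siRNA vehicle libraries it had 77.0, 81.5 and 76.0 CPM. The lowest dDAVP library stood well above the highest vehicle library, and replicate 3 was the highest of all. The difference was 1.43-fold (log2 0.51, SE 0.084, adjusted p = 0.00253). Without replicate 3 of the dDAVP group it was log2 0.39 with an adjusted p of 0.00144, and without both libraries of high mitochondrial ribosomal RNA it was log2 0.39 with an adjusted p of 0.000491. The call was lost in limma on log2 of TPM plus 1 (log2 0.45, adjusted p = 0.0859) and of TPM plus 0.1 (adjusted p = 0.0824), and the range over all alternatives was 1.43e-06 to 0.0859.

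Cebpb, a leucine zipper factor that acts in cAMP, acute-phase and differentiation responses, had 27.9, 27.9 and 26.1 CPM in Ctnnb1-siRNA dDAVP libraries and 20.3, 19.8 and 18.96 CPM in Ctnnb1-siRNA vehicle libraries. The groups were narrow and wide apart, with coefficients of variation of 3.85% with dDAVP and 3.39% with vehicle. The difference was 1.39-fold (log2 0.47, SE 0.076, adjusted p = 0.00215), and the call was kept in all 23 alternatives (adjusted p from 1.67e-06 to 0.0368). Ehf, the most abundant ETS gene, had 436, 477 and 502 CPM with dDAVP and 394, 395 and 433 CPM with vehicle. Its libraries did not overlap, but it missed the threshold (1.16-fold, log2 0.21, SE 0.055, adjusted p = 0.0566). It passed with DESeq2 (adjusted p = 0.00877), with a stricter filter on low counts (0.0473), without dDAVP replicate 1 (0.0174) and without vehicle replicate 3 (0.0403).

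None of the other 6 tested members was called after Ctnnb1 siRNA. Nfat5 had 407, 365 and 566 CPM with dDAVP, against 564, 516 and 460 CPM with vehicle, so that dDAVP replicate 3 was above all vehicle libraries and the other 2 were below them. The log2 difference was -0.20 (95% confidence interval -0.58 to 0.18). Without that replicate it was -0.41 with an adjusted p of 0.228, and without both libraries of high mitochondrial ribosomal RNA it was -0.41 with an adjusted p of 0.0221, which is a call. Both libraries left out had the highest Nfat5 of their groups, so leaving them out lowers the dDAVP means. That fit was also added after seeing the data. Tfcp2l1 had 525, 498 and 504 CPM with dDAVP, all below 546, 528 and 533 CPM with vehicle (log2 -0.07, SE 0.060, adjusted p = 0.675). Libraries of the dDAVP and vehicle groups did not overlap for 3 higher and 1 lower members, where 9.54% and 8.3% of all tested genes had such a pattern. Gata2, Gata3, Grhl2 and Trim28 had log2 differences of 0.18, 0.17, 0.06 and -0.06. Without dDAVP replicate 3, the log2 difference was 0.36 for Gata2, 0.02 for Gata3, 0.03 for Grhl2 and 0.02 for Trim28, so that of Trim28 turned. That of Gata2 was -0.18 without dDAVP replicate 1.

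**Figure D3:**
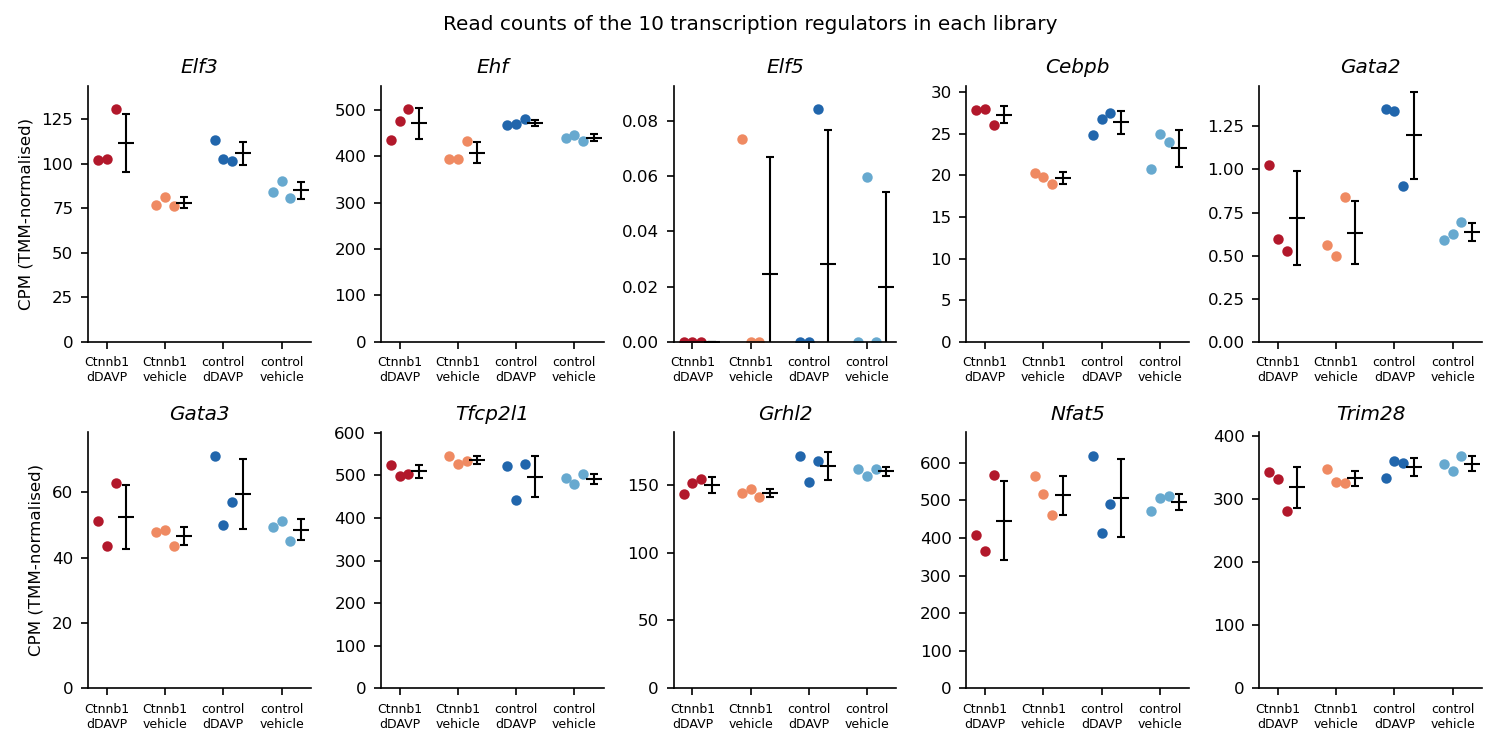
TMM-normalised CPM of the 10 regulators in each library (points, 3 per group) with the group mean and SD beside them; each panel has its own axis from 0. Elf3 and Cebpb are higher in all dDAVP libraries than in all vehicle libraries after Ctnnb1 siRNA, while for Nfat5 and Gata3 1 dDAVP library per siRNA lies above its mates.

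The same question was asked of cells with control siRNA, where 2.83% of all tested genes were called (1.91% higher and 0.915% lower). Here edgeR called 0 of the 10 regulators, and 3 had an unadjusted p under 0.05, all with positive differences, where 14.6% of tested genes had such a p. DESeq2 and voom with sample weights each called 1, Elf3, and limma on log2 TPM called 0. The median log2 difference of the 9 tested members was 0.10, against -0.0042 over all tested genes.

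Elf3 had 113, 102.5 and 102 CPM in control-siRNA dDAVP libraries and 84.3, 90.1 and 80.6 CPM in control-siRNA vehicle libraries. As after Ctnnb1 siRNA, the libraries did not overlap. The log2 difference was 0.32 (SE 0.084, adjusted p = 0.0605). Elf3 passed with DESeq2 (adjusted p = 0.0103), voom with sample weights (0.00516) and a fit of the control-siRNA groups alone (0.00649). It also passed without Ctnnb1-siRNA dDAVP replicate 2 (0.0430) or replicate 3 (0.00209), and without both libraries of high mitochondrial ribosomal RNA (log2 0.26, adjusted p = 0.00921). Without control-siRNA dDAVP replicate 1 alone, the adjusted p was 0.240, and the range over all alternatives was 0.00209 to 0.283.

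Cebpb had 24.8, 26.8 and 27.5 CPM with dDAVP, against 20.7, 25.0 and 24.0 CPM with vehicle. The lowest dDAVP value lay inside the vehicle range (log2 0.18, SE 0.076, adjusted p = 0.264). Ehf had 467, 470.3 and 480 CPM with dDAVP and 440.5, 447 and 433 CPM with vehicle, without overlap but with a difference of 1.07-fold (log2 0.10, SE 0.055, adjusted p = 0.433).

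Among the 9 tested regulators, Gata2 had the largest estimate and the least depth. It had 53, 53 and 43 reads in control-siRNA dDAVP libraries, against 29, 21 and 32 reads in control-siRNA vehicle libraries, or 1.35, 1.34 and 0.905 CPM against 0.592, 0.626 and 0.694 CPM. The log2 difference was 0.90 (95% confidence interval 0.25 to 1.55, adjusted p = 0.155), and no alternative called it. After Ctnnb1 siRNA it had 47, 26 and 25 reads with dDAVP and 23, 22 and 36 reads with vehicle, which overlap. Gata3 had 71.2, 50.0 and 57.2 CPM with dDAVP after control siRNA and 49.4, 51.3 and 45.0 CPM with vehicle (log2 0.29, SE 0.13, adjusted p = 0.344). Without dDAVP replicate 1 its log2 difference was 0.14. Over the 10 members, libraries did not overlap for 3 higher and 0 lower, where 10.2% and 12% of all tested genes had such patterns. Tfcp2l1, Grhl2, Nfat5 and Trim28 had log2 differences between -0.03 and 0.03. Without dDAVP replicate 1 that of Nfat5 was -0.14, and the signs of the other 3 turned as well.

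**Figure D4:**
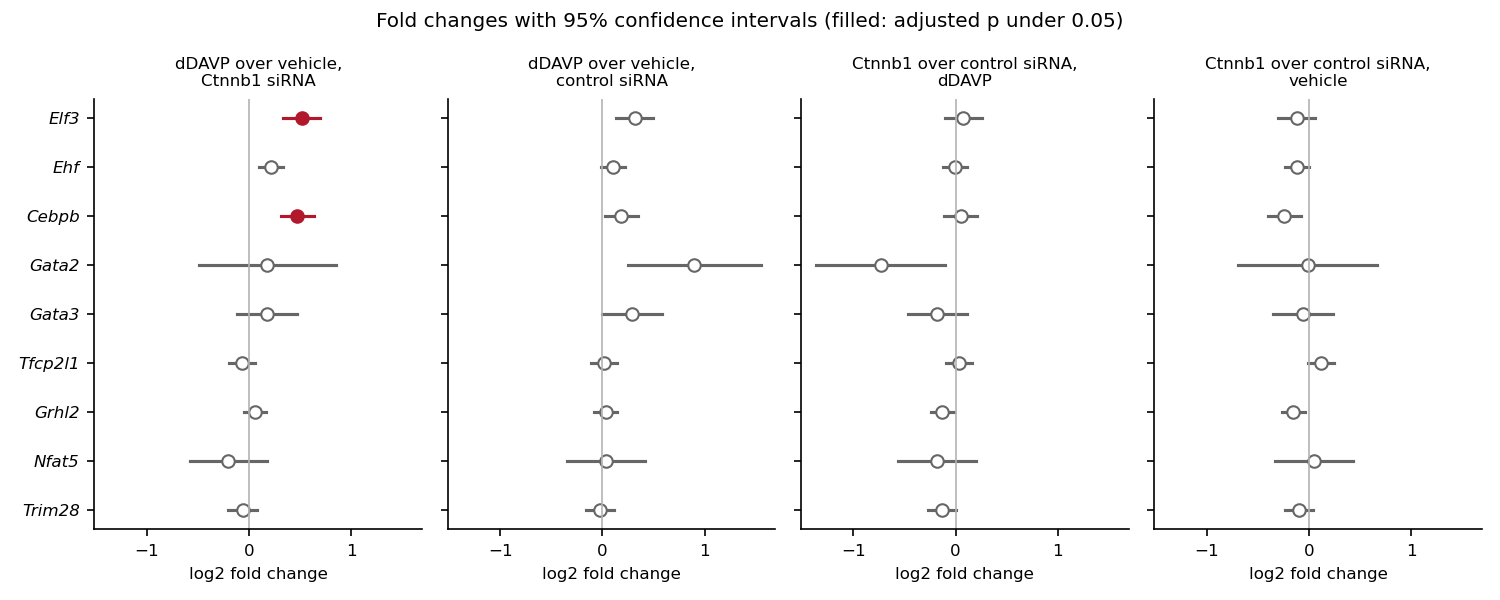
Log2 fold change of the 9 tested regulators with 95% confidence intervals in the 4 pairwise comparisons; filled red points passed an adjusted p of 0.05. The only filled points are Elf3 (0.51) and Cebpb (0.47) for dDAVP after Ctnnb1 siRNA, and the widest intervals are those of Gata2.

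Averaged over both siRNAs, dDAVP gave 3 members called higher and 0 lower, where 6.86% of all tested genes were called (4.33% higher and 2.54% lower). An unadjusted p under 0.05 was found for 5 members and for 19.1% of tested genes. Elf3 rose 1.33-fold (log2 0.41, SE 0.059, adjusted p = 0.000353), Cebpb 1.26-fold (log2 0.33, SE 0.054, adjusted p = 0.00107) and Ehf 1.11-fold (log2 0.16, SE 0.039, adjusted p = 0.0226). The calls of Elf3 and Cebpb were kept in all 22 alternatives. That of Ehf was lost without Ctnnb1-siRNA vehicle replicate 1 (adjusted p = 0.0599) or 2 (0.0793), control-siRNA dDAVP replicate 3 (0.0597) or control-siRNA vehicle replicate 3 (0.0658), and on log2 TPM (0.269 and 0.271), with a range of 0.00166 to 0.271. Gata2 and Gata3 had unadjusted but not adjusted p-values under 0.05 (log2 0.54 and 0.23, adjusted p = 0.181 and 0.199). Nfat5, with a log2 average of -0.08, was called lower without both libraries of high mitochondrial ribosomal RNA (log2 -0.27, adjusted p = 0.0165). These libraries had the highest Nfat5 of their groups.

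The next comparison asked whether knockdown of beta-catenin changed the regulators in the presence of dDAVP. EdgeR called 0 of 10, where 0.267% of all tested genes were called, and DESeq2, voom and limma on log2 TPM also called 0. An unadjusted p under 0.05 was found for 2 members, Gata2 and Grhl2, both with negative differences, where 11.7% of tested genes had such a p. Grhl2, which maintains epithelial junctions and barrier, had 143, 151 and 155 CPM in Ctnnb1-siRNA dDAVP libraries and 171, 152 and 168 CPM in control-siRNA dDAVP libraries (log2 -0.13, SE 0.052, adjusted p = 0.345). Control replicate 2 lay inside the knockdown range. Gata2 had 1.03, 0.594 and 0.527 CPM after Ctnnb1 siRNA, against 1.35, 1.34 and 0.905 CPM after control siRNA (log2 -0.73, SE 0.30, adjusted p = 0.351). Elf3 (log2 0.08), Cebpb (0.05) and Ehf (-0.0026) had 95% confidence intervals of -0.10 to 0.25, -0.11 to 0.21 and -0.12 to 0.12. Without Ctnnb1-siRNA dDAVP replicate 3 the value of Elf3 was -0.05. In no member were the libraries of the groups free of overlap, where 13.3% of tested genes had such a pattern (7.26% higher and 6.02% lower).

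With vehicle, edgeR also called 0 of the 10 between Ctnnb1 siRNA and control siRNA, where 0.43% of all tested genes were called, and so did DESeq2, voom and limma on log2 TPM. The unadjusted p was under 0.05 for 2 members, both with negative differences, where 8.09% of tested genes had such a p. Cebpb had 20.3, 19.8 and 18.96 CPM in Ctnnb1-siRNA vehicle libraries, against 20.7, 25.0 and 24.0 CPM in control-siRNA vehicle libraries. The ranges were separate by a small gap (log2 -0.24, SE 0.077, adjusted p = 0.321). Grhl2 had 144, 147 and 141 CPM after Ctnnb1 siRNA, all below 162, 156 and 162 CPM after control siRNA (log2 -0.15, SE 0.052, adjusted p = 0.355). Tfcp2l1 had 546, 528 and 533 CPM, all above 494, 480 and 504 CPM after control siRNA (log2 0.12, SE 0.060, adjusted p = 0.652). These are 2 lower and 1 higher members without overlap, where 9.26% and 8.95% of all tested genes had such patterns.

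Over both treatments, the knockdown again gave 0 called members in edgeR, where 1.85% of all tested genes were called (0.939% higher and 0.909% lower), and 2 with an unadjusted p under 0.05 (13.2% of tested genes). Grhl2 had a log2 average of -0.14 (SE 0.037, adjusted p = 0.0679). DESeq2 called it (adjusted p = 0.0110), as did voom with sample weights (0.00596) and edgeR without Ctnnb1-siRNA dDAVP replicate 3 (0.0279) or control-siRNA dDAVP replicate 2 (0.0198). Over all alternatives the adjusted p was 0.00596 to 0.184. Trim28 had a log2 average of -0.12 (SE 0.046, adjusted p = 0.274) and was called on log2 of TPM plus 1 (log2 -0.20, adjusted p = 0.0357) and plus 0.1 (0.0353). On log2 of TPM plus 1, however, most calls over all genes in this contrast were lower, unlike in edgeR. In single libraries Trim28 had 342, 332 and 281 CPM in Ctnnb1-siRNA dDAVP libraries, 346, 327 and 324 CPM in Ctnnb1-siRNA vehicle libraries, 333, 359 and 356 CPM in control-siRNA dDAVP libraries and 355, 344 and 368 CPM in control-siRNA vehicle libraries. Its lowest value was in Ctnnb1-siRNA dDAVP replicate 3.

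Whether the response to dDAVP itself differed between the siRNAs was tested as an interaction. EdgeR called 0 members and 0 of all 16508 genes (0%), and 1 member, Cebpb, had an unadjusted p under 0.05, as had 5.02% of tested genes. DESeq2, voom and limma on log2 TPM called 0 members, while over all genes DESeq2 called 1, limma on log2 of TPM plus 0.1 called 2, and voom 0. For Cebpb the response after Ctnnb1 siRNA minus that after control siRNA was log2 0.29 (95% confidence interval 0.06 to 0.52, adjusted p = 0.918), and for Elf3 it was 0.20 (-0.06 to 0.45, adjusted p = 0.918). Without Ctnnb1-siRNA dDAVP replicate 3 it was 0.07 for Elf3 and 0.32 for Cebpb. Both genes were called after Ctnnb1 siRNA and not after control siRNA, but the difference between these responses was not called. As group means, Cebpb was at 27.3 ± 1.05 CPM in Ctnnb1-siRNA dDAVP, 19.7 ± 0.667 in Ctnnb1-siRNA vehicle, 26.4 ± 1.39 in control-siRNA dDAVP and 23.2 ± 2.22 CPM in control-siRNA vehicle libraries (SD, n = 3 each).

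The spread between libraries was uneven among the regulators. Nfat5 had coefficients of variation of 23.8% in Ctnnb1-siRNA dDAVP, 10.1% in Ctnnb1-siRNA vehicle, 20.5% in control-siRNA dDAVP and 4.29% in control-siRNA vehicle libraries. Gata3 had 18.5%, 5.79%, 18.2% and 6.68% in the same order. In both genes the high value of each dDAVP group was in the library with the most mitochondrial ribosomal RNA. Relative to the group mean of log2 CPM, Ctnnb1-siRNA dDAVP replicate 3 was 0.37 higher for Nfat5, 0.27 higher for Gata3 and 0.24 higher for Elf3, and control-siRNA dDAVP replicate 1 was 0.31, 0.28 and 0.10 higher. Cebpb and Trim28 went the other way, by -0.06 and -0.17 in Ctnnb1-siRNA dDAVP replicate 3 and by -0.09 and -0.07 in control-siRNA dDAVP replicate 1. The nuclear RNA Malat1 was also highest in these libraries, with 10290 and 9344 CPM, against 7411 to 8514 CPM in the other 10. What this has to do with the levels of the regulators was not tested.

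**Figure D5:**
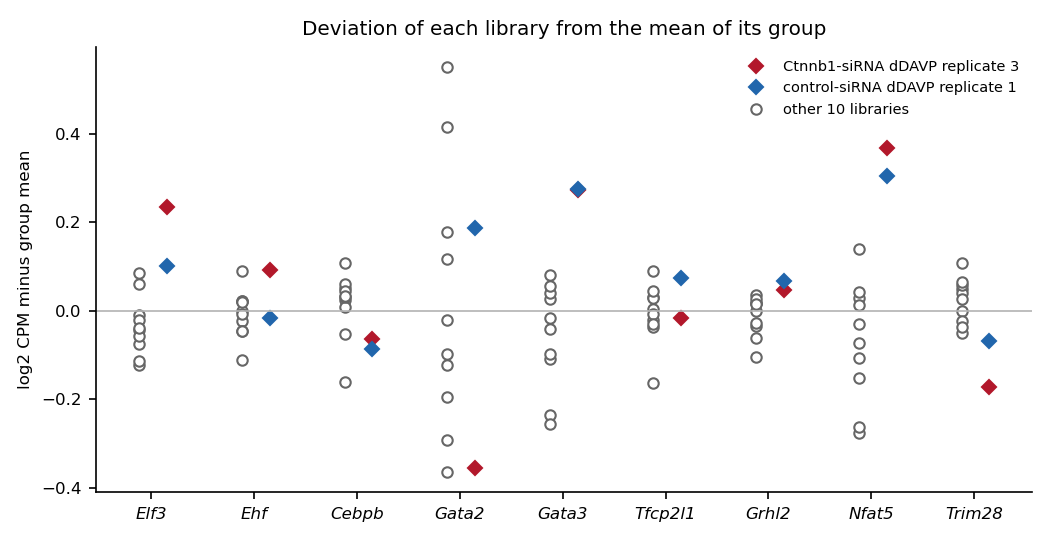
Log2 CPM of each regulator in each of the 12 libraries minus the mean of its group; diamonds are the libraries with the highest share of mitochondrial ribosomal RNA (1.52% in red, 1.27% in blue), open circles the other 10. Both diamonds are the highest values for Gata3, Nfat5 and Elf3, whereas for Cebpb both lie below the group mean.

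Close relatives of the regulators were mostly not called. Of 23 other ETS genes listed, 18 were in the table and 17 were tested. Tested were also 4 other GATA genes and FOG cofactors, 9 other Rel homology genes, and 11 Trim28 partners and TIF1 relatives. EdgeR called 0 of each list in all 4 pairwise comparisons. With an unadjusted p under 0.05 there were, for dDAVP after Ctnnb1 siRNA, 2 ETS, 0 GATA, 1 Rel and 0 Trim28-partner genes, and 2, 0, 2 and 2 after control siRNA. For the knockdown there were 1, 0, 1 and 0 with dDAVP, and 2, 0, 1 and 0 with vehicle. DESeq2 called 0 of these lists in the same comparisons. For dDAVP after control siRNA, voom with sample weights called 1 Rel gene (Rel) and 1 Trim28 partner (Cbx1), and limma on log2 of TPM plus 1 called 1 ETS gene (Elf2) and 1 TIF1 relative (Trim24). Cebpd, a C/EBP gene induced by hormones and cytokines, was 1 of 4 other C/EBP genes and rose with dDAVP after Ctnnb1 siRNA (1.94-fold, log2 0.95, SE 0.17, adjusted p = 0.00474) and after control siRNA (2.28-fold, log2 1.19, SE 0.17, adjusted p = 0.000875). It averaged 3.87 TPM over the 12 libraries, against 31.2 TPM for Cebpb. Grhl1 was the 1 of 3 tested grainyhead and CP2 relatives that was called in a pairwise comparison, for dDAVP after Ctnnb1 siRNA (log2 0.39, SE 0.090, adjusted p = 0.0286). The call was kept in 14 of 23 alternatives (adjusted p from 0.00384 to 0.205) and lost, among others, without any 1 of the 3 vehicle libraries or without dDAVP replicate 2 or 3. After control siRNA it had a log2 difference of 0.19 (adjusted p = 0.337), and the interaction was not called (adjusted p = 0.918).

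Genes known to be controlled by members were followed as lists. Of 6 tested osmoprotective genes that NFAT5 controls, 2 were called higher with dDAVP after Ctnnb1 siRNA and 1 after control siRNA. None was called lower, and the medians were log2 0.21 and 0.15. An unadjusted p under 0.05 in either direction was found for 5 and 3. Slc6a12, named after its values were seen, had 182 reads in all and lower means with dDAVP. These were 0.263 against 0.511 CPM after Ctnnb1 siRNA and 0.259 against 0.378 CPM after control siRNA. The other tested genes had higher means with dDAVP. Slc5a3, the sodium-coupled myo-inositol transporter, rose 1.37-fold after Ctnnb1 siRNA (log2 0.45, SE 0.098, adjusted p = 0.0217) and 1.54-fold after control siRNA (log2 0.62, SE 0.099, adjusted p = 0.00261). After Ctnnb1 siRNA the call was kept in 17 of 23 alternatives, with an adjusted p up to 0.273. It was lost, among others, without any 1 of the 3 vehicle libraries (adjusted p from 0.0622 to 0.107). After control siRNA the call was kept in 21 of 23 alternatives (adjusted p up to 0.0617). Hspa1b rose 1.18-fold after Ctnnb1 siRNA (adjusted p = 0.0333), a call kept in 10 of 23 alternatives and lost without any 1 library of either group compared. Its reads cannot be told with certainty from those of its near-identical copy Hspa1a. Nfat5 itself was not called in either comparison. Of 7 epithelial genes that GRHL2 controls, such as Cdh1, Cldn4 and Rab25, 0 were called in the 4 pairwise comparisons, and 2 and 1 had an unadjusted p under 0.05 for dDAVP after Ctnnb1 siRNA and after control siRNA, and 1 and 1 for the knockdown with dDAVP and with vehicle. For dDAVP after Ctnnb1 siRNA, DESeq2 called 2, voom 0 and limma on log2 of TPM plus 1 called 1. After control siRNA they called 0, 1 and 1.

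Among other factors proposed to act on Aqp2, Crem and Fos rose with dDAVP, and Jun was lower after the knockdown. Of 22 tested, 3 rose with dDAVP after Ctnnb1 siRNA, and 2 rose and 1 fell after control siRNA. Apart from Crem and Fos, these were Nr3c2, the mineralocorticoid receptor gene, after Ctnnb1 siRNA and Jun after control siRNA. Crem, a cAMP response element factor, had a log2 difference of 0.59 (SE 0.10, adjusted p = 0.00355) after Ctnnb1 siRNA and 0.68 (SE 0.10, adjusted p = 0.00101) after control siRNA. Fos, an AP-1 subunit, rose by log2 0.81 and 0.84 in the same comparisons (adjusted p = 6.72e-05 and 3.40e-05). Jun, another AP-1 subunit, was lower after Ctnnb1 siRNA than after control siRNA with dDAVP (log2 -0.62, SE 0.069, adjusted p = 0.000738) and with vehicle (log2 -0.71, SE 0.068, adjusted p = 0.000157). Fosb was lower after Ctnnb1 siRNA with dDAVP (log2 -1.25, SE 0.22, adjusted p = 0.0224), a call kept in 16 of 23 alternatives and lost without Ctnnb1-siRNA dDAVP replicate 1 or 2 or control-siRNA dDAVP replicate 1 or 3. Jun fell with dDAVP after control siRNA (log2 -0.31, adjusted p = 0.0189), which was lost without dDAVP replicate 1 or 3 or vehicle replicate 2 or 3 (adjusted p from 0.0546 to 0.130). Jun and Fosb were the 2 genes of this list called for the knockdown with dDAVP, and Jun the 1 with vehicle.

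Some marker genes of cell types moved with dDAVP as well. Of 9 tested principal cell markers, Aqp2, Avpr2 and Tmem45b rose after Ctnnb1 siRNA, and these and Aqp3 rose after control siRNA. The call of Aqp3 (adjusted p = 0.0445) was kept in 12 of 23 alternatives, with an adjusted p up to 0.171. It was lost without control-siRNA dDAVP replicate 1 or 2, any 1 of the 3 control-siRNA vehicle libraries, Ctnnb1-siRNA dDAVP replicate 1 or Ctnnb1-siRNA vehicle replicate 2. The other tested markers were not called. Of these, named after its values were seen, the sodium channel subunit gene Scnn1a averaged 22.8 CPM in Ctnnb1-siRNA dDAVP and 25.8 in Ctnnb1-siRNA vehicle libraries, and 21.1 in control-siRNA dDAVP and 24.4 CPM in control-siRNA vehicle libraries. Hsd11b2 also had lower means with dDAVP, 18.0 against 21.2 CPM after Ctnnb1 siRNA and 23.2 against 24.6 CPM after control siRNA. Scnn1b and Fxyd4 had higher means with dDAVP after either siRNA, and Scnn1g only after Ctnnb1 siRNA. Avpr2, the V2 receptor gene, rose by log2 0.43 after Ctnnb1 siRNA (adjusted p = 0.0106) and by log2 0.45 after control siRNA (adjusted p = 0.00795). Each of these Avpr2 calls was kept in 21 of 23 alternatives, with an adjusted p up to 0.0736 and 0.0583. Of 3 tested intercalated cell markers, Aqp6, an intracellular aquaporin, rose by log2 1.08 after Ctnnb1 siRNA (adjusted p = 0.0355) and by log2 1.56 after control siRNA (adjusted p = 0.00240). After Ctnnb1 siRNA the Aqp6 call was kept in 15 of 23 alternatives, with an adjusted p up to 0.218. It was lost, among others, without dDAVP replicate 2 or 3 or vehicle replicate 2 or 3, and without control-siRNA vehicle replicate 2. After control siRNA the Aqp6 call was kept in 21 of 23 alternatives, with an adjusted p up to 0.0732. EdgeR called 0 proximal tubule, fibroblast, endothelial and leukocyte markers in both comparisons, with 1, 1, 1 and 0 at an unadjusted p under 0.05 after Ctnnb1 siRNA and 1, 0, 0 and 0 after control siRNA. DESeq2 called 1 proximal tubule marker, Lrp2, in each. The part of these markers in the changes of Elf3, Cebpb and Ehf was not tested.

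For the regulators called in a pairwise comparison, the genes with the nearest pattern of group means were sought among 417 of the 459 genes called in the same comparison. These had a mean of at least 1 CPM, and predicted genes, small RNAs and pseudogenes were left out by symbol. The measure was the root mean square difference of centred log2 CPM over the 4 groups. Nearest to Elf3 were Slc25a25, a mitochondrial carrier (0.026), Nfxl1 (0.033) and Pik3c3, a class III phosphatidylinositol 3-kinase (0.036). Nearest to Cebpb were Snhg4, a host gene of small nucleolar RNA (0.030), Oas1a (0.032), whose reads may be shared with close paralogs, and Usp18, a protease for the ubiquitin-like protein ISG15 (0.039). The centred means of Elf3 were 0.24 in Ctnnb1-siRNA dDAVP, -0.26 in Ctnnb1-siRNA vehicle, 0.17 in control-siRNA dDAVP and -0.14 in control-siRNA vehicle libraries.

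Overlapping genes limit some of these values, because the use of strand in counting is not stated. Elf3 (gene ID 13710, chromosome 1, 135253574 to 135258472) shares 4994 bases with Gm26642, an antisense gene of GENCODE M21. Gm26642 had no row in the table, so no reads of it can be set against the 49545 of Elf3. Gata3 (gene ID 14462, chromosome 2, 9857078 to 9887953) overlaps 4930412O13Rik and 9230102O04Rik, which had 6264 and 2637 reads over the 12 libraries, against 26907 for Gata3. Cebpb (gene ID 12608, chromosome 2, 167688915 to 167690432) shares 908 bases with Tmem189 on the opposite strand, which had 27134 reads, against 12550 for Cebpb. Trim28 (gene ID 21849, chromosome 7, 13024152 to 13031032) shares 6137 bases with Zbtb45 on the opposite strand, which had 3445 reads, against 176149. Grhl2 shares 274 bases with the antisense gene Gm16136 of GENCODE M21, which had 10673 reads, against 80322 for Grhl2. Gata2 shares 4394 bases with Gm38708 of RefSeq, which had 70 reads, against 410 for Gata2. Tfcp2l1 and Nfat5 also overlap annotated genes, of which only LOC115487679 in Tfcp2l1 was in the table, with 12 reads. Aqp2 shares 5490 bases with Gm34765 of RefSeq, which had 98 reads, against 1293 for Aqp2. Ctnnb1 shares 5157 bases with Ulk4 on the opposite strand, which had 23865 reads, against 283758 for Ctnnb1. The other coordinates are chromosome 2, 103263431 to 103303275 for Ehf, chromosome 6, 88193891 to 88207032 for Gata2, chromosome 1, 118627923 to 118685168 for Tfcp2l1, chromosome 15, 37232821 to 37363569 for Grhl2 and chromosome 8, 107293435 to 107379517 for Nfat5, all on GRCm38 from RefSeq.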

How the data were processed

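Per the labels' protocols, total RNA was freed of ribosomal RNA and made into strand-specific libraries. Per the submitters' processing notes, FastQC, Trimmomatic, HISAT2, StringTie and DESeq2 were used with GRCm38 (mm10), without versions. The deposited table gives, per the file headers, 12 columns of read counts and 12 of TPM made by the authors and the counts are whole numbers.

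Counts were analysed with edgeR 4.0.16 in R 4.3.3. FilterByExpr left 16508 of 25208 genes with 99.97% of reads. After TMM scaling, a robust quasi-likelihood model with 4 group means took in all 12 libraries together (common coefficient of variation 8.26%), and each contrast was tested over all genes. Errors are 1 SE, and intervals are 95%. TPM served for levels. The regulators and gene lists were chosen with earlier results of these data known. Named were all members, Ctnnb1, Aqp2, up to 4 called genes of each list by smallest adjusted p, of which only part are given, and the 3 nearest patterns; relatives were also named for their level.

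Alternatives were DESeq2 1.42.0, other scalings and filters, fits of the groups compared, a replicate block, limma 3.58.1 on log2 TPM plus 1 or 0.1 and leaving out each library. Added after seeing the data were voom with sample weights and leaving out both dDAVP libraries of highest mitochondrial ribosomal RNA. The code was tested on simulated data.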

Additional observations from a re-analysis of the deposited data

How the results depend on the processing

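Over 1422 values of single regulators under the alternatives, 1396 kept their side of the threshold, 8 lost a call and 18 gained one. In 53 of them an uncalled value changed sign, each with a main log2 size of at most 0.18. For dDAVP after control siRNA, the count of called members was 1 in place of 0 with DESeq2, with a fit of the groups compared alone, with voom and without both dDAVP libraries of highest mitochondrial ribosomal RNA, and 0 to 1 when each library was left out. After Ctnnb1 siRNA it was 1 in place of 2 on log2 TPM with either pseudocount, and 2 to 3 without each library. It was 3 with DESeq2, with the stricter filter and without both dDAVP libraries of highest mitochondrial ribosomal RNA. For the knockdown over both treatments it was 1 in place of 0 with DESeq2, voom and log2 TPM with either pseudocount, and 0 to 1 without each library. The other contrasts gave 0 to 0 without each library, and 2 to 3 for the average of dDAVP. The cause was not tested.

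Called genes of the other lists moved as follows. For dDAVP after control siRNA they numbered 17 in place of 10 with voom (7 to 11 without each library). After Ctnnb1 siRNA they numbered 6 in place of 11 with the groups compared alone and on log2 TPM with either pseudocount (5 to 12). For the knockdown with vehicle they numbered 3 in place of 1 with DESeq2 and voom, 4 with the groups compared alone and without both libraries, and 2 on log2 TPM (1 to 3). With dDAVP they numbered 1 in place of 2 on log2 TPM and without both libraries (1 to 4). The averages gave 28 in place of 18 with voom for dDAVP (16 to 24), and for the knockdown 10 in place of 5 with voom and 8 without both libraries (3 to 10).

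Over all genes, voom called 1301 in place of 467 for dDAVP after control siRNA, and log2 TPM called 210 in place of 459 after Ctnnb1 siRNA. For the knockdown, 255 in place of 71 with vehicle and 301 in place of 44 with dDAVP were the highest counts with all or 10 libraries, and 53 and 8 the lowest. Without each library in turn, the counts over all genes were 240 to 843 for dDAVP after control siRNA, 212 to 492 after Ctnnb1 siRNA, 18 to 181 for the knockdown with vehicle and 5 to 216 with dDAVP, so the shares of all genes called move with single libraries. On log2 of TPM plus 1, the share of calls that were higher was 42.4% in place of 67.7% after control siRNA, 63.3% in place of 74.9% after Ctnnb1 siRNA, 33.4% in place of 63.0% for the average of dDAVP and 16.7% in place of 50.8% for that of the knockdown. Samples of equal replicate number did not deviate together. Of 18 pairs of the same number, 0 had a correlation over 0.1 (-0.086 to 0.072), and 3 of 12 libraries correlated best with their own number. With 3 libraries per group, these correlations cannot show whether samples of equal number were handled together. The fit with the replicate block gave 0, 2, 0, 0, 0, 3 and 0 called members in the 7 contrasts and changed no call of a member, while Hspa1b after Ctnnb1 siRNA had an adjusted p of 0.0503. By CPM per kilobase of transcript the ranges of neighbours were separate at 4 steps in place of 3. Gata2 had 21 to 53 reads per library and Elf5 0 to 4; the part of depth or of group size in the lack of a call was not tested.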
